A study of Mus musculus with 5 samples.

Results

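Genes of protein folding, quality control and stress signalling in the endoplasmic reticulum (ER) were examined in the fetal mouse colon with and without HNF4. The set held 37 genes, chosen by function: ER chaperones, disulfide enzymes, sensors and factors of the unfolded protein response, ER degradation and translocation. All probe sets annotated to a single symbol among them were taken, 80 of the 22626 tested, and each of the 37 genes had at least 1. Ero1l appeared in the annotation as Ero1a and was matched through its gene ID, and 1 probe set shared by Sec61b and another gene was left out. Whole colons of 5 embryos at E18.5 were hybridised to 1 array each. The 3 HNF4 null embryos carried the genotype HNF4LoxP/LoxP FoxA3Cre (2 floxed alleles), and the 2 controls were HNF4LoxP/+ FoxA3Cre (1 floxed allele). The FoxA3Cre transgene was therefore shared by both groups, so the controls were heterozygous rather than wild type. Arrays are named null_59, null_60, null_426, control_406 and control_421 after their labels. The p-values rest on the spread between these arrays only, in which differences between embryos and in handling cannot be told apart. For each probe set that spread was moderated by the spread over all probe sets.

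Proteins bound for secretion or membranes enter the ER through the Sec61 channel and are folded there by chaperones such as BiP (Hspa5) and by protein disulfide isomerases. When unfolded protein accumulates, the sensors IRE1 (Ern1, and Ern2 in mucus-secreting epithelia), PERK (Eif2ak3) and ATF6 signal to the nucleus. IRE1 splices the mRNA of Xbp1, whose product raises degradation and chaperone genes. PERK slows translation and favours Atf4, which acts on amino acid and stress genes including Ddit3 (CHOP). In the gut, goblet and other secretory cells make particular demands on this machinery.

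None of the 80 member probe sets passed limma's threshold (adjusted p under 0.05), and the lowest adjusted p among them was 0.545. The background over all probe sets was 0.124% past the same threshold. At an unadjusted p under 0.05, 3 member probe sets were higher in null colons (3.75%, against 2.82% of all probe sets) and 4 were lower (5%, against 4.33%). The higher ones belonged to Ern1, Atf4 and Pdia6, and the lower ones to Dnajc3 (2 probe sets), Edem1 and Dnajb9. These shares lay near the background. Among brightest probe sets only, 1 gene was higher at that level (2.70%, against 2.6% of all genes) and 1 was lower (2.70%, against 4.24%). Over all 80 probe sets, the higher count was 0 without null_59, where 1.715% of all probe sets were higher at that level. By the brightest probe set of each gene, the log2 difference (null minus control) ranged from -0.50 for Dnajb9 to 0.46 for Hsp90b1, with a median of 0.07 against 0.02 for all genes. The sign of that median depended on the scaling between arrays, since it was -0.04 after median centring. With a single control array left, it was 0.03 without control_406 and 0.04 without control_421. The 95% interval lay within 2-fold either way for 37 of 37 genes and within 1.5-fold for 19, so larger changes of the brightest probe sets were outside these intervals.

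**Figure D1:**
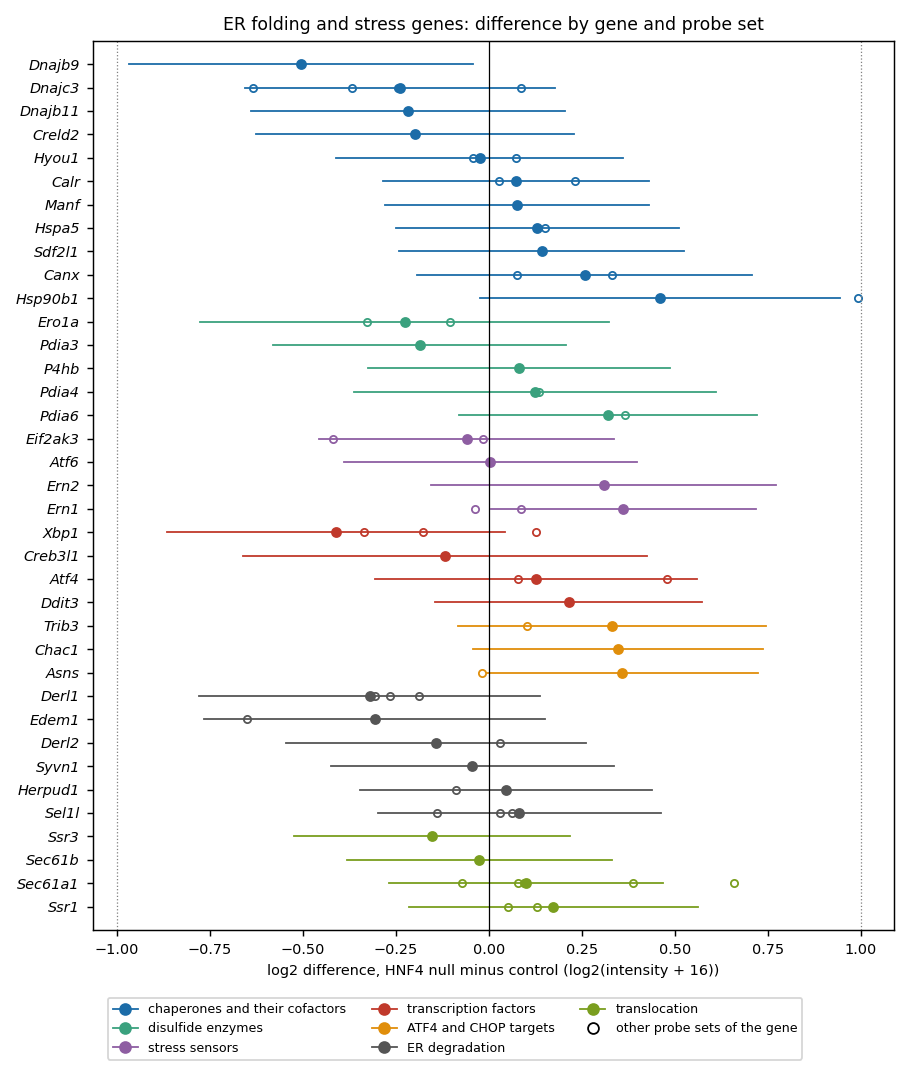
Log2 difference (null minus control, on the log2(intensity + 16) scale) for the 37 genes by role. Filled points are each gene's brightest probe set with its 95% confidence interval from limma (3 null and 2 control arrays), open points are the gene's other probe sets, and dotted lines mark 2-fold. Every bar lies inside the dotted lines and most cross 0, while open points of Hsp90b1, Sec61a1, Dnajc3 and Edem1 lie farthest from 0.

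The groups did not overlap, with all 3 null arrays above both control arrays, for 11 of the 80 member probe sets (13.8%, against 12.0% of all probe sets). All 3 null arrays lay below both controls for 12 (15%, against 11.6%). On the values as deposited, without quantile normalisation, these counts were 7 (8.75%, against 14.6% of all probe sets) and 9 (11.3%, against 9.64%). After median centring they were 6 (7.5%, against 11.0%) and 14 (17.5%, against 12.5%). The share of members above was thus over that of all probe sets only with quantile normalisation. The brightest probe sets of Ern1 and Asns, Chac1, Ddit3, 1 probe set of Atf4 and the dimmer probe set of Pdia6 stayed above under each of the 3 scalings. Dnajb9, 4 probe sets of Dnajc3, 1 of Edem1 and 1 of Derl1 stayed below under each. Of the rest, 1 probe set each of Hsp90b1, Hspa5, Calr, Hyou1 and Pdia6 separated the groups only after quantile normalisation.

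In mean level, 36 of 37 members (97.3%) had a brightest probe set above the median of all probe sets, against 59.8% of all genes. Over all member probe sets it was 62 of 80. Members also varied among the null embryos. In null_426 the brightest probe set was the lowest of the 5 arrays for 35.1% of the members, against 23.5% of all genes. In null_59 and null_60 it was the lowest for 5.4% of the members each, against 14.2% and 19.3% of all genes. The lowest array was control_421 for 29.7% of members and 20.9% of all genes.

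**Figure D2:**
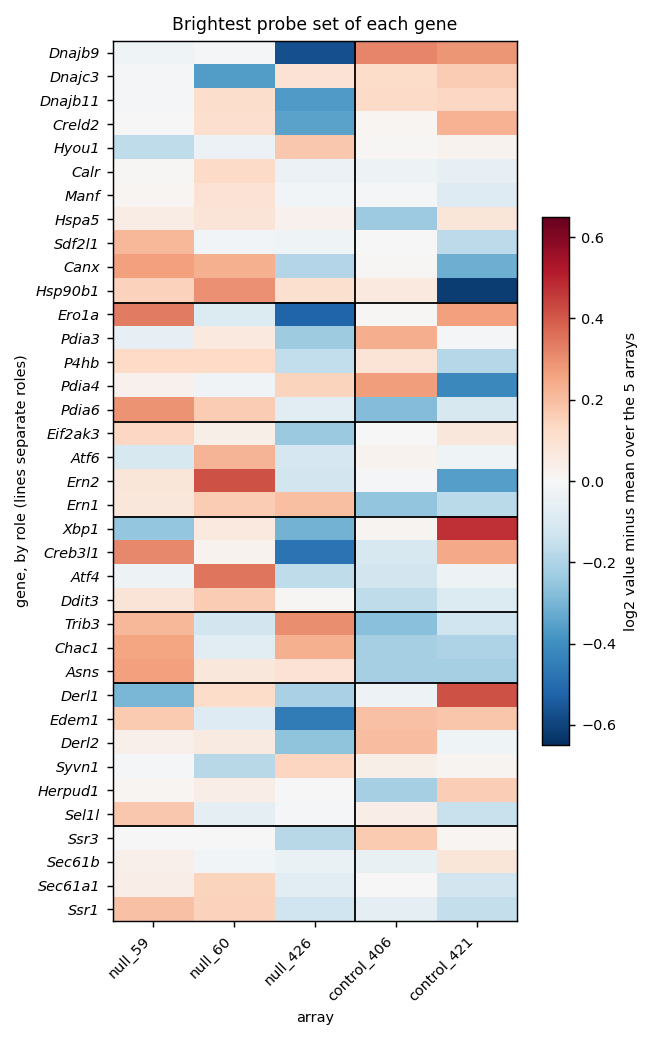
Brightest probe set of each of the 37 genes in each array, as its normalised log2 value minus its mean over the 5 arrays (colour scale), with lines between roles and between null and control arrays. Asns, Chac1 and Trib3 are lower in both controls, Dnajb9 is highest in both controls, and null_426 is the lowest array for Dnajb9, Dnajb11, Creld2, Ero1a and Creb3l1.

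The promoters of these genes show the sequence by which the response is best known. The ER stress element (ERSE) is CCAAT, a spacer of 9 bases of any kind and then CCACG, the stretch that ATF6 and spliced XBP1 recognise. It was searched on both strands in the RefSeq promoters of GRCm38.p6, 250 bases before to 50 after each start, which were given for 30 of the 37 members. Atf6, Creb3l1, Derl1, Ern2, Hyou1, Manf and Sec61a1 were not searched. The element lay in 8 of the 30 (26.7%) and in 37 of 27025 genes overall (0.137%). The element was itself defined on promoters of this class, so its presence describes the set and is not a result of these arrays. The stretches are shown on the gene's strand with the element in capitals and 20 flanking bases, because they mark which members carry a direct stress element.
Hspa5: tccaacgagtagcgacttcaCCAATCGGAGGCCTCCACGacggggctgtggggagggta
Hsp90b1: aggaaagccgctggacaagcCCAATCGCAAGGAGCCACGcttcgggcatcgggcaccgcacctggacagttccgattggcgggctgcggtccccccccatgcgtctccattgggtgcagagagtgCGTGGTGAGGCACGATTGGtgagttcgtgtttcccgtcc
Calr: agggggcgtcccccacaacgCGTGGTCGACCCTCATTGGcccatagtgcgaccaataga
Canx: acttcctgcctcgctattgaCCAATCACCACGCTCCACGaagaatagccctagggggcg
Dnajc3: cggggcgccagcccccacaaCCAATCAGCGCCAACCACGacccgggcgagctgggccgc
Creld2: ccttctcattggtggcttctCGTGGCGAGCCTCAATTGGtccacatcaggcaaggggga
Pdia6: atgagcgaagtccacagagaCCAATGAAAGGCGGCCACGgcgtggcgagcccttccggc
Syvn1: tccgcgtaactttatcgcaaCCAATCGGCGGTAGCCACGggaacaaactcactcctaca

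These stretches lie at chr2:34772005-34772063 (plus strand) for Hspa5, chr10:86705513-86705676 (minus) for Hsp90b1 and chr8:84847055-84847113 (minus) for Calr. Those of Canx, Dnajc3 and Creld2 lie at chr11:50325780-50325838 (minus), chr14:118937807-118937865 (plus) and chr15:88819500-88819558 (plus). Pdia6 has its stretch at chr12:17266471-17266529 (plus) and Syvn1 at chr19:6046512-6046570 (plus). Hsp90b1 held 2 copies, 1 on each strand, and in Calr and Creld2 the element lay on the opposite strand. In Hspa5 it spanned positions -65 to -47 from the start, and in Syvn1, the nearest, -44 to -26. By their brightest probe sets, the log2 differences of these 8 genes ran from -0.24 (Dnajc3) to 0.46 (Hsp90b1), with a median of 0.10 and 5 above 0. None of these 8 brightest probe sets passed limma's threshold and 0 had an unadjusted p under 0.05, although dimmer probe sets of Dnajc3 and Pdia6 did have one.

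A shorter element, ERSE-II (ATTGG, 1 base of any kind, then CCACG, both strands), was found in Herpud1 and Dnajb11, 2 of 30 members and 12 of 27025 genes (0.0444%). The core of the amino acid response element that ATF4 recognises, TTGCATCA (both strands), was found in Herpud1 and Chac1, against 1.03% of all genes. The 5-letter CCACG (both strands), which both ER stress elements contain, lay in 24 of 30 members (80%) and in 35.5% of all genes. The stretches of Herpud1 (chr8:94386297-94386407, plus strand) and Chac1 (chr2:119351029-119351076, plus) are given since they carry the response elements of both branches or of the ATF4 branch alone, with the matches in capitals.
Herpud1: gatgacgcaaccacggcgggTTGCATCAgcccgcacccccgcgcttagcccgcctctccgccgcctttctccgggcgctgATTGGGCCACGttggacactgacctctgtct
Chac1: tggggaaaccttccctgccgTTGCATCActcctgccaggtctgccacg

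By brightest probe sets, the chaperones and their cofactors included the highest and the lowest differences of the set. Hspa5, which encodes BiP, the main ATP-driven chaperone of the ER, had deposited intensities of 1871, 1928 and 1681 in null_59, null_60 and null_426. In control_406 and control_421 it read 1620 and 1917. The groups overlapped, and the log2 difference was 0.13 ± 0.17 (SE; 95% interval -0.25 to 0.51, adjusted p = 0.880). The second probe set of Hspa5, at 885, 859 and 711 against 772 and 763, differed by 0.15 ± 0.16 (SE, adjusted p = 0.854). Calr, a lectin chaperone that binds calcium, read 1998, 2152 and 1747 against 2042 and 1895, which differed by 0.07 (interval -0.28 to 0.43). Its membrane-bound relative Canx differed by 0.26 by its brightest probe set (interval -0.19 to 0.71).

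Hsp90b1, the ER form of HSP90 also called GRP94, had the largest positive difference by a brightest probe set. It read 1592, 1804 and 1417 in null colons and 1598 and 947 in control_406 and control_421. Only control_421 was low, and control_406 lay within the range of the null arrays, although after normalisation both controls lay below them. The difference of 0.46 ± 0.22 (SE, adjusted p = 0.715) was 0.12 without control_421 and 0.80 without control_406. Its second probe set read 955, 662 and 694 in null colons against 909 and 161, differing by 0.99 ± 0.52 (SE, adjusted p = 0.739). Without control_421 that difference was -0.13. Without control_406, with a single control array assumed to vary like the null arrays, it was 2.10 (adjusted p = 0.0220), the only member call in any setting tried.

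J-domain cofactors steer BiP to its clients. Dnajb9, known as ERdj4, read 184, 191 and 127 in null_59, null_60 and null_426 and 244 and 229 in the controls. All null arrays lay below both controls, with null_426 lowest. The difference was -0.50 ± 0.21 (SE, adjusted p = 0.678), and it kept its sign in every alternative setting.

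Dnajc3, or P58IPK, which restrains PERK and works with BiP, was measured by 5 probe sets. By the second brightest it read 144, 174 and 121 against 240 and 218, and the difference was -0.63 ± 0.19 (SE, adjusted p = 0.545). That is 1.55-fold lower and was the lowest adjusted p of the set. The fourth in brightness read 44.9, 43.6 and 44.9 against 57.6 and 57.6, with a log2 difference of -0.37 ± 0.16 (SE, adjusted p = 0.695). The brightest read 253, 201 and 273 against 290 and 287 (-0.24 ± 0.19, SE, adjusted p = 0.802). The third read 164, 129 and 147 against 174 and 171 (-0.24 ± 0.17, SE, adjusted p = 0.789). These 4 probe sets separated the groups in the same direction. The dimmest, with 28.9, 28.3 and 20.8 against 30.6 and 13.4, overlapped between the groups (0.09 ± 0.21, SE) and turned to -0.17 without control_421.

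Dnajb11, the abundant J-domain partner of BiP also called ERdj3, read 302, 345 and 234 in null and 348 and 335 in control colons, a difference of -0.22 (interval -0.64 to 0.20). On the deposited values null_60 and the controls overlapped. Creld2, a secreted stress-induced protein, differed by -0.20, and the chaperone-like exchange factor Hyou1 by -0.02. Manf, a secreted survival factor that binds BiP, and Sdf2l1, a partner of the J-domain proteins, differed by 0.08 and 0.14. Of the 11 genes of this role 6 were above 0 and 5 below 0, with a median of 0.07 that was -0.05 after median centring.

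Among the disulfide enzymes, which form and shuffle the bonds of secreted proteins, Pdia6 had the clearest separation, by a dim probe set. The mean log2 value of that probe set was 5.86, beside a median of 7.19 over all probe sets and a floor of 4. Its dimmer probe set read 47.4, 51.5 and 50.03 in null and 36.6 and 27.5 in control colons, so the null arrays lay above both controls. The difference was 0.37 ± 0.16 (SE, adjusted p = 0.695). The brightest probe set read 946, 927 and 688 against 662 and 743 (0.32 ± 0.18, SE, adjusted p = 0.759), and on these deposited values null_426 fell between the controls. By that probe set the groups also overlapped after median centring. P4hb, the founding protein disulfide isomerase, differed by 0.08, Pdia4 by 0.12 and Pdia3, which acts with the lectin chaperones on glycoproteins, by -0.19. Ero1a, the oxidase that recharges these enzymes, read 544, 431 and 296 in null_59, null_60 and null_426 and 456 and 540 in the controls. Its null arrays spanned both sides of the controls, and the difference was -0.23 (interval -0.78 to 0.32).

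The stress sensors gave small differences of both signs. Ern1, encoding IRE1 alpha, read 109, 118 and 126 in null_59, null_60 and null_426 by its brightest probe set, and 84.3 and 83.8 in the controls. All null arrays were above both controls, and the difference was 0.36 ± 0.16 (SE, adjusted p = 0.695), or 1.29-fold. The other probe sets of Ern1 did not separate the groups. The second brightest read 52.7, 59.8 and 71.2 against 57.7 and 47.2 (0.09 ± 0.16, SE), and the dimmest read 30.0, 16.7 and 48.0 against 30.4 and 25.5 (-0.04 ± 0.25, SE).

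Ern2, encoding the IRE1 beta of mucus-producing epithelium, read 151, 199 and 135 in null and 142 and 102 in control colons. The groups overlapped, since null_426 lay below control_406, and the difference was 0.31 ± 0.21 (SE, adjusted p = 0.780). Goblet cell markers were measured by 10 genes, of which 1 (Zg16) was past the threshold, lower in null. Spdef, a factor of goblet cell maturation, had a difference of 0.61 (adjusted p = 0.616), and the median over the 10 was -0.03. Their summed intensity was 12533 to 14727 in null and 13810 to 18041 in control arrays. Without Retnlb, which was at background in null_59 and control_421 and at 2067 to 3320 in the others, it was 10466 to 13358 and 13824 to 14722. The part of these markers in the level of Ern2 was not tested. In whole colons, fewer cells of a type and less RNA per cell cannot be told apart. Eif2ak3, encoding PERK, read 189, 179 and 147 against 174 and 177 (-0.06 ± 0.18, SE, adjusted p = 0.951). Atf6, encoding the sensor that is itself cleaved into a transcription factor, read 125, 162 and 129 against 139 and 127 (0.00 ± 0.18, SE, adjusted p = 0.999). Both genes overlapped between the groups.

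The transcription factors of the response were measured at the mRNA level only, which does not show Xbp1 splicing or the translation of Atf4. Xbp1 read 745, 1001 and 682 by its brightest probe set in null_59, null_60 and null_426, and 988 and 1299 in the controls. The high array was control_421, and null_60 lay above control_406. The difference of -0.41 ± 0.20 (SE, adjusted p = 0.728) was -0.18 without control_421 and -0.64 without control_406. The other 3 probe sets of Xbp1 differed by -0.33, -0.18 and 0.13.

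Atf4 had 3 probe sets that did not give the same picture. The second brightest read 534, 443 and 379 in null and 321 and 325 in control colons, with every null array above both controls. Its difference was 0.48 ± 0.19 (SE, adjusted p = 0.653), or 1.39-fold. The brightest read 520, 728 and 462 against 520 and 540, with null_60 alone high (0.13 ± 0.19, SE, adjusted p = 0.898), and without null_60 it differed by -0.02. The remaining one read 239, 208 and 263 against 212 and 233 (0.08 ± 0.18, SE). Ddit3, the pro-apoptotic factor CHOP, read 183, 199 and 176 against 154 and 155. Its null arrays lay above both controls by a margin that did not pass (0.21 ± 0.16, SE, interval -0.14 to 0.57, adjusted p = 0.799). Creb3l1, an ER-anchored factor of matrix-secreting and goblet cells, ranged from 481 in null_426 to 870 in null_59 and differed by -0.12 (interval -0.66 to 0.42).

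The 3 genes grouped here as targets of ATF4 and CHOP all read higher in null colons by their brightest probe sets. Asns, which makes asparagine, read 491, 454 and 424 in null_59, null_60 and null_426 and 365 and 351 in the controls (0.36 ± 0.16, SE, adjusted p = 0.702). Chac1, which degrades glutathione, read 166, 132 and 168 against 118 and 111 (0.35 ± 0.17, SE, adjusted p = 0.728). Trib3, a pseudokinase that dampens the response, read 330, 268 and 344 against 239 and 256 (0.33 ± 0.18, SE, adjusted p = 0.759). In each gene all null arrays lay above both controls, as they did for 12.6% of all genes. For Trib3 they overlapped after median centring, and none of the 3 genes had an unadjusted p under 0.05 in limma's test. That count was 3 with array weights, 2 without null_60 and 1 each with a pseudocount of 64 and without dim probe sets. The shares of all probe sets higher at that level were 4.86%, 3.30%, 2.80% and 2.95% in these settings. The median of the 3 was 0.35, 0.29 after median centring and 0.33 on the values as deposited. The dimmer probe sets of Asns and Trib3 differed by -0.02 and 0.10. This grouping does not hold every possible target in the set. Herpud1, grouped with ER degradation although its promoter held the ATF4 core element, differed by 0.05 (brighter probe set) and -0.09 (dimmer).

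**Figure D3:**
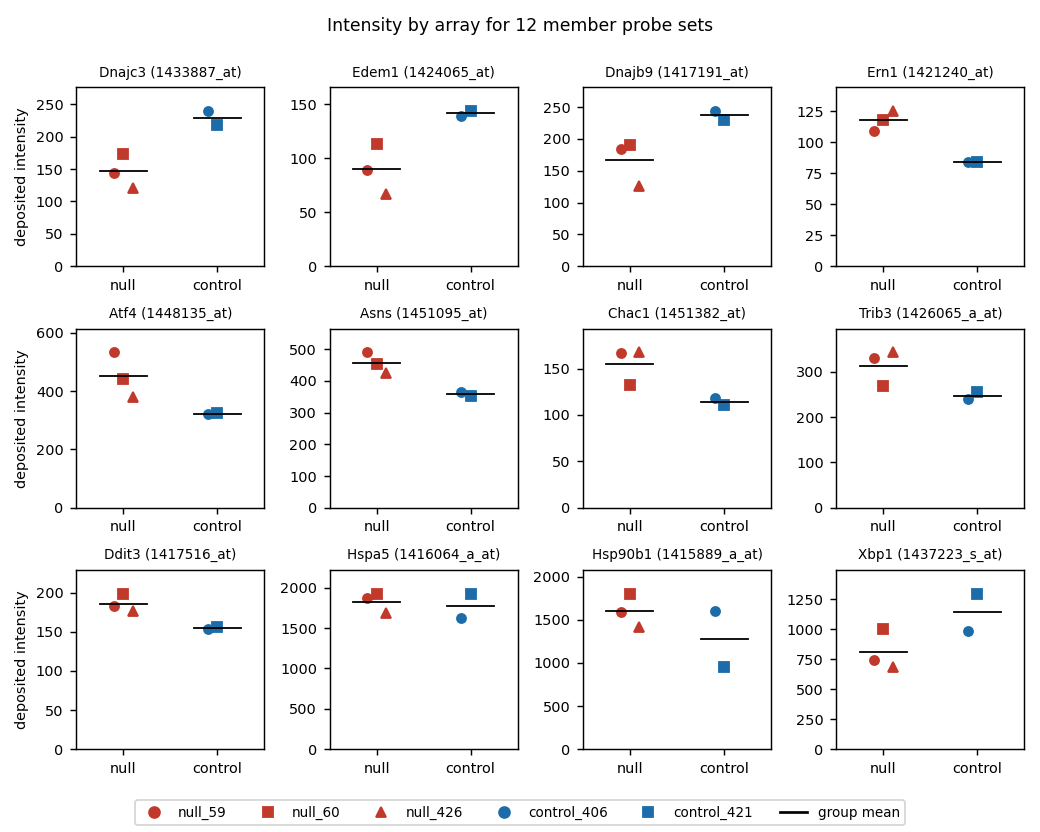
Deposited intensity (linear scale from 0) of 12 member probe sets in the 3 null arrays (red) and 2 control arrays (blue), with the mean of each group as a black line. Dnajc3, Edem1 and Dnajb9 lie lower in all null arrays, Ern1, Atf4, Asns, Chac1, Trib3 and Ddit3 lie higher in all of them, and Hspa5, Hsp90b1 and Xbp1 overlap.

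ER degradation returns misfolded proteins to the cytosol for destruction. Edem1, a lectin that extracts misfolded glycoproteins, read 89.0, 113 and 67.2 in null and 139 and 144 in control colons by its dimmer probe set. Every null array lay below both controls, and the difference was -0.65 ± 0.22 (SE, adjusted p = 0.608), or 1.57-fold lower. By its brightest probe set Edem1 read 188, 157 and 122 against 195 and 185 (-0.31 ± 0.20, SE, adjusted p = 0.780), and on the deposited values null_59 lay between the controls. Derl1, a derlin of the retrotranslocation channel, read 326, 463 and 340 against 412 and 559 by its brightest probe set, with control_421 highest. Its difference of -0.32 ± 0.20 (SE, adjusted p = 0.780) was -0.09 without control_421. The other 3 probe sets of Derl1 gave differences from -0.31 to -0.19.

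The remaining degradation genes were close to 0 by their brightest probe sets. The second derlin, Derl2, differed by -0.14, and the ubiquitin ligase Syvn1 (HRD1) by -0.04. The ligase's partner Sel1l differed by 0.08 and the stress-induced adaptor Herpud1 by 0.05. Of the 15 probe sets of the 6 degradation genes 10 were below 0, beside 10649 of all 22626. None had all null arrays above both controls (against 12.0% of all probe sets) while 3 had all below (20%, against 11.6%). These 3 belonged to Edem1 and Derl1 only. By brightest probe sets, 4 of the 6 genes were below 0, beside 5757 of all 12393 genes. All null arrays lay below both controls for 1 gene (16.7%, against 11.8% of all genes).

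The translocation genes feed new proteins into the ER. Sec61b, a subunit of the channel, read 1405, 1437 and 1226 in null and 1440 and 1510 in control colons, a difference of -0.03 (interval -0.38 to 0.33). The translocon-associated subunits Ssr1 and Ssr3 differed by 0.17 and -0.15. Sec61a1, the pore of the channel, had 6 probe sets that disagreed in 1 array. The brightest read 1035, 1192 and 878 in null and 1094 and 959 in control colons (0.10 ± 0.16, SE). By contrast the fifth in brightness read 259, 220 and 210 against 219 in control_406 and 81.6 in control_421. Its difference of 0.66 ± 0.30 (SE, adjusted p = 0.702) was 0.08 without control_421. The fourth in brightness read 520, 377 and 386 against 533 and 196 (0.39 ± 0.33, SE), and without control_421 it differed by -0.25.

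The same array stood apart for Canx, whose second brightest probe set read 292, 242 and 207 in null colons, 330 in control_406 and 105 in control_421. In all, 5 of 80 member probe sets were lowest in control_421 by a gap of at least 1.5-fold to the next array, which is 6.25% against 1.80% of all probe sets, and 0 stood so in any other array. They belonged to Hsp90b1, Sec61a1 and Canx, and the size of the gap was chosen after the values were seen. Among the array's own quality probes, signal at the 3' end of Gapdh over signal at its 5' end came to 1.47 in control_421 and 0.767 to 0.895 elsewhere. The same ratio for Tfrc was lowest in control_421 (1.51, against 2.69 to 3.48), and that for Actb, at 1.76, lay within the range of the other arrays (1.44 to 1.83). The part of these ratios in the readings was not tested. Without control_421 the differences of these 5 probe sets lay between -0.37 and 0.12.

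**Figure D4:**
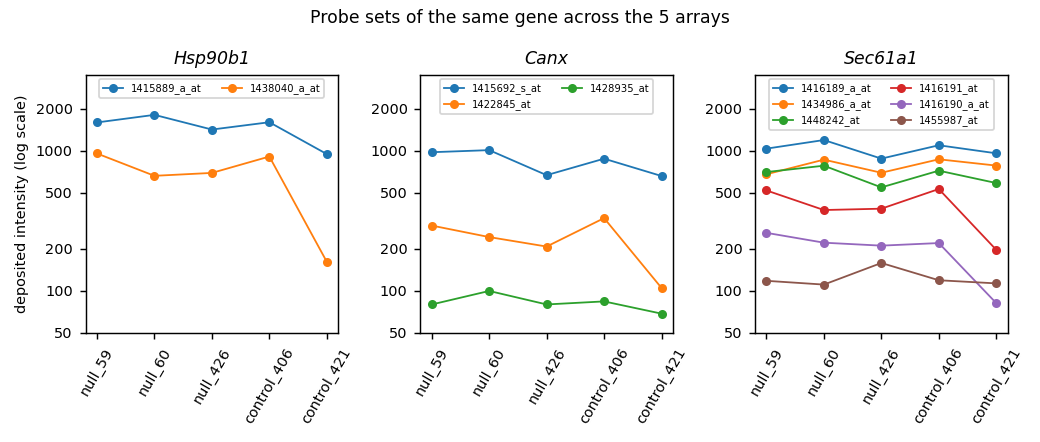
Deposited intensity (log scale) of every probe set of Hsp90b1, Canx and Sec61a1 in the 5 arrays, 1 line per probe set. Some probe sets drop in control_421, to 947 and 161 for Hsp90b1, 105 for Canx and 81.6 and 196 for Sec61a1. The dimmest of Canx reads 68.7 there (79.8 to 99.7 elsewhere) and that of Sec61a1 113 (111 to 158 elsewhere).

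The other genes of the pathway were described from lists, by the brightest probe set of each gene, and 0 of their members passed limma's threshold. Of 21 measured further chaperones and glycoprotein folding genes, 0 had an unadjusted p under 0.05, and the median was 0.04. Its lowest p belonged to Serp1, a protein that stabilises new membrane proteins, at 811, 757 and 774 in null and 1022 and 1149 in control colons (-0.38 ± 0.17, SE, adjusted p = 0.702). Sil1, an exchange factor of BiP, differed by -0.45. Of 15 further disulfide and redox genes, 1 was higher at that level (6.67%, against 2.6% of all genes) and the median was -0.02. This gene was Agr3, a relative of the goblet cell isomerase Agr2, near the bottom of the scale at 30.9, 24.7 and 18.2 against 1.30 and 3.52 (1.07 ± 0.21, SE, adjusted p = 0.195). Txndc5, a disulfide isomerase of endothelium and plasma cells, differed by -0.38.

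Of 32 further genes of the unfolded protein and integrated stress responses, 2 were higher (6.25%, against 2.6% of all genes) and 1 lower (3.13%, against 4.24%) at an unadjusted p under 0.05, with a median of 0.03 that was -0.042 after median centring. Slc7a5, an amino acid importer raised by ATF4, read 139, 159 and 113 in null and 101 and 65.4 in control colons (0.57 ± 0.21, SE, adjusted p = 0.642). Atf5, a factor translated like Atf4, differed by 0.46 and is outside the rule for named genes. Of the 32 genes, 18 were above 0 and 14 below, beside 6636 and 5757 of all 12393 genes. Cebpb, a partner of both ATF4 and CHOP, read 152, 151 and 104 against 178 and 230 (-0.58 ± 0.22, SE, adjusted p = 0.652). All null arrays lay above both controls for 6 of the 32 genes (18.8%, against 12.6% of all genes) and below for 3 (9.38%, against 11.8%). Without control_421, 0 of the 32 had an unadjusted p under 0.05.

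Of 24 further degradation genes, 0 had an unadjusted p under 0.05 and 15 were below 0 (median -0.08). Without null_426 that median was 0.029, with 14 above 0 and 10 below. Ube2j1 and Fam8a1, which work with the ligase Syvn1, differed by -0.36 and -0.34. Of 25 further translocation, signal peptide and glycan transfer genes, 2 were lower at that level (8%, against 4.24% of all genes), and 6 had all null arrays below both controls (24%, against 11.8% of all genes). Sec11c, a catalytic subunit of the signal peptidase, read 202, 339 and 209 in null and 435 and 387 in control colons (-0.72 ± 0.22, SE, adjusted p = 0.571). Srp19, of the signal recognition particle, differed by -0.52.

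Of 31 genes of traffic between ER and Golgi, 22 were below 0, 7 had all null arrays below both controls (22.6%, against 11.8%) and 1 was lower at an unadjusted p under 0.05 (3.23%, against 4.24%). The median of -0.06 turned to 0.02 without control_406 and to 0.024 without null_426, each with 17 above 0 and 14 below. It was -0.13 without control_421 and -0.14 after median centring. Sec16b, which organises ER exit sites, read 40.2, 46.5 and 51.1 against 63.2 and 71.3 (-0.51 ± 0.17, SE, adjusted p = 0.591), and Sar1b, the GTPase that loads large lipoproteins, differed by -0.37. Beside these readings, 8 of 13 markers of enterocytes and colonic epithelium were lower at that level (61.5%, against 4.24% of all genes). Among them, Aqp8 (-2.50) and Cdhr5 (-1.90) were past limma's threshold, as 0.137% of all genes were. The summed intensity of the 13 markers ran from 8023 to 8746 in null and from 10831 to 12034 in control arrays. The part of these markers in the traffic genes was not tested. Of 15 cytosolic and mitochondrial heat shock genes, taken for comparison, 1 was higher at an unadjusted p under 0.05 (6.67%, against 2.6% of all genes). It was Hspd1 (0.40), which is mitochondrial, so the cytosolic ones had none. Cryab differed by 0.36, and the median of 0.02 was -0.064 without control_421 and -0.036 after median centring.

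For the series as a whole, Hnf4a was measured by 4 probe sets, of which 0 passed limma's threshold and 1 had an unadjusted p under 0.05 (-0.55 ± 0.19, SE, adjusted p = 0.603). Because the floxed segment is not described in the labels, these readings may not check the deletion. Of the 13 markers of colonic epithelium, none lay below an intensity of 50 on every array. Slc26a3 was below it in null_59, null_60 and control_406, at 29.6, 39.9 and 36.8. Median deposited intensities of the arrays were 123.7 to 135.2. Plasma cells and pancreatic acinar cells are rich in ER. Markers listed for plasma and B cells together summed to 635 to 800 over 5 genes in null arrays and to 650 to 661 in control arrays. Of these genes 2, Jchain and Pou2af1, lay below an intensity of 50 on every array. Ighm made up most of the sum, which therefore does not show how many plasma cells were present. Acinar markers summed to 1739 to 2585 over 9 genes in null arrays and to 2298 to 2357 in control arrays. Within the acinar list, 4 of 9 genes were above 0 and 5 below, with a median of -0.05. Cela2a and Cela1 differed by -0.56 and -0.39 (limma adjusted p = 0.492 and 0.684), and Cel, the highest, by 0.29. Smooth muscle markers had 3 of 8 genes higher at an unadjusted p under 0.05 (37.5%, against 2.6% of all genes). That count was 1 after median centring and 0 without null_59, where 2.64% and 1.715% of all probe sets were higher at that level. The lowest array was control_421 for 6 of the 8 (75%, against 20.9% of all genes). Of the 8, 7 were above 0, beside 6636 of all 12393 genes. Their sums were 15022 to 16551 in null and 12554 to 15375 in control arrays. The median difference of 0.22 was 0.14 without control_421 and 0.41 without control_406.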

How the data were processed

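The deposited values are linear intensities, 1 for each probe set on each array, as the values themselves show. The labels name the Affymetrix labelling procedure and Qiagen RNeasy mini columns. Which software summarised and scaled them is not given in the sources used here. Of 22690 probe sets, 64 quality controls were left out. A platform annotation of 2016 gave 20380 probe sets 1 gene symbol, 691 several and 1555 none. Values below 0 were set to 0, taken as log2(intensity + 16) and quantile normalised, because array medians spread over 0.11 on this scale. Null and control were compared with limma 3.58.1 in R 4.3.3 (lmFit, eBayes, two-sided, no covariate, 9.33 total degrees of freedom), with Benjamini-Hochberg adjustment across all 22626 probe sets. Folds come from that same log2 scale, so those of dim genes are understated. A gene's brightest probe set has the highest mean over the 5 arrays. Printed intensities are the deposited ones; overlap between groups refers to normalised values unless stated. The number of arrays limits the precision. Probe sets with 1 symbol may still share sequence with related genes.

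Members and lists were chosen with earlier results of these data known. Named were member probe sets with an unadjusted p under 0.05, the brightest of the 3 highest and 3 lowest genes, the hub genes (Hspa5, Hsp90b1, Xbp1, Ern1, Ern2, Eif2ak3, Atf6, Atf4, Ddit3), all probe sets of genes with both signs and such a p, and 2 genes of lowest p per wider list; other members appear by their difference. Values of further members in each array, and Atf5, were added after the values were seen. Alternatives were other scalings, a pseudocount of 1 or 64, testing without dim probe sets, a trended variance prior, array weights and each array left out. The fit was tested on simulated data.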

Additional observations from a re-analysis of the deposited data

How the results depend on the processing

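Over 22 named member probe sets and 12 alternatives, 246 of 257 values kept their direction and side of the threshold and 11 changed sign, in 6 probe sets. For the dimmest Ern1 probe set the value was 0.064 as deposited, 0.018 after median centring and -0.25 to 0.21 with 1 array left out. For Atf6 it was -0.060 with array weights and -0.11 to 0.062 with 1 array left out, and for Eif2ak3 0.040 and -0.14 to 0.050. With 1 array left out, the brightest Atf4 probe set gave -0.023 to 0.24, the brightest of Hspa5 -0.028 to 0.29 and the dimmest of Dnajc3 -0.17 to 0.35. The median over member genes turned from 0.07 to -0.042 after median centring and was 0.03 to 0.10 with 1 array left out.

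The count past the threshold over all probe sets, 28, was 14 with a pseudocount of 1, 17 without dim probe sets (fewer being tested), 45 with array weights and 8 to 104 with 1 array left out (104 without control_406). Member probe sets past it numbered 0 to 1 with 1 array left out and 0 otherwise. With array weights, 9 of the 80 member probe sets were higher at an unadjusted p under 0.05, where 4.86% of all probe sets were. The weight was 3.65 for null_59 and 0.594 to 0.837 for the other arrays. Members at that level in either direction numbered 4 without null_59, 7 without null_60 and 5 without null_426. All probe sets at that level then numbered 1123, 2134 and 1188 of 22626. Without dim probe sets 2 members were lower, beside 4.84% of the probe sets tested. The filter on dim probe sets left 62 member probe sets of 36 genes. Overlap counts under other scalings, list medians under each setting, the goblet sum without Retnlb and the 1.5-fold gap were added after seeing the data. No paired analysis was possible because the groups share no replicate numbers. The cause of these moves was not tested.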

Other observations

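Outside the member list, 29 genes held the ER stress element in the searched promoter window, and 10 of them were measured. Their log2 differences by the brightest probe set ran from -0.67 to 0.58 with a median of 0.04, against 0.02 for all genes. Derl3, a derlin induced by ER stress, differed by 0.22, Ero1b, the oxidase of professional secretory cells, by -0.24, and Alg12, a mannosyltransferase of N-glycan assembly, by -0.20. The ends of the range were Ptgdr2, a prostaglandin D2 receptor of leukocytes (-0.67 ± 0.18, SE, limma adjusted p = 0.484), and Acnat2, an acyltransferase gene (0.58 ± 0.23, SE, adjusted p = 0.653). None of the 10 passed limma's threshold, and 2 had an unadjusted p under 0.05, as 847 of all 12393 genes did.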
